A study of Homo sapiens with 2 samples.

Results

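Keratins are the intermediate filament proteins of epithelial cells. They fall into acidic type I chains and neutral to basic type II chains, and a filament needs a chain of each type, so that cells make them in pairs. KRT8 and KRT18 are the primary pair of simple epithelia, to which KRT7 and KRT19 are added in ducts and airways, whereas KRT5 with KRT14 or KRT15 marks the basal layer of stratified epithelia and pairs such as KRT4 with KRT13, KRT6A with KRT16 or KRT1 with KRT10 mark the layers above it. The genes were chosen by symbol, as KRT followed by a number and at most 1 letter, without keratin associated proteins (KRTAP) and pseudogenes. Of the 27685 genes listed, 55 met this rule, 29 of type I and 26 of type II. All type II genes and KRT18 lie in a cluster on chromosome 12 (27 genes), and the other 28 type I genes in a cluster on chromosome 17.

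The data were RNA-seq expression values of 2 untreated human cell lines, H2087 and H596, with 1 library each. Both are established lines whose labels give lung adenocarcinoma as the cell type, and both were grown in RPMI medium with fetal bovine serum. Total estimated counts were 46961500 in H2087 and 55387847 in H596. Levels are given as FPKM, the number of fragments divided by the length of the transcript and by the size of the library, which can be set beside each other for genes of different length. Because no cell line had a replicate, no difference between the lines was tested, and the 95% intervals in brackets, from the share of the total count that a gene held (Wilson) or from the ratio of 2 counts (exact), cover counting error only. In these bulk libraries, fewer cells that make a keratin and less of its mRNA per cell cannot be told apart.

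The cell type markers divided the lines. The epithelial genes EPCAM, CDH1 and ESRP1 were expressed in both, with a summed FPKM of 475 in H2087 and 179 in H596; EPCAM was 5.76-fold lower in H596 (65.0 against 375), while CDH1 (52.3 and 59.6) and ESRP1 (47.8 and 54.5) stayed under a 2-fold difference. Of 4 lung adenocarcinoma markers, NKX2-1, NAPSA and FOXA2 passed that level in H2087 and none in H596, where the summed FPKM of the 4 was 0.688 against 163 in H2087, so that the labelled cell type lacked these markers in H596. Of 4 squamous markers, 1 (SOX2) passed in H2087 and 3 (TP63, DSG3 and SOX2) in H596, with sums of 39.3 and 146. The summed FPKM of 4 fibroblast markers was 3.89 in H2087, all of it COL1A1, and 10.7 in H596, mostly DCN, whereas COL1A2 had 0 counts in both lines. The leukocyte genes PTPRC and CD3E had 0 counts in both lines, and CD68, which other cells also express, stood at 128 and 25.6 FPKM. The part of these markers in the keratin differences was not tested.

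Both lines expressed much keratin mRNA, but of different kinds. The summed FPKM of the 55 genes was 8002 in H2087 and 8485 in H596, a ratio of 1.06, and the genes held 1.34% (1.34 to 1.35) and 1.49% (1.49 to 1.49) of all counts. Of the summed FPKM of all genes, which differed between the lines, they held 1.71% in H2087 and 2.06% in H596. H2087 expressed 14 keratin genes at an FPKM of at least 1 and H596 17, which made 22 genes in all. Over all 27685 genes, 12534 reached that level in H2087 and 12608 in H596. Of the 55 keratin genes, 36 had 0 counts in H2087 and 26 in H596, against 36.3% and 36.0% of all genes. Another 22 keratin genes, 17 of them hair keratins, had 0 counts in both lines. The highest keratin of H2087 was KRT18, the 3rd highest of all genes there, and that of H596 was KRT13, likewise the 3rd highest there.

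**Figure D1:**
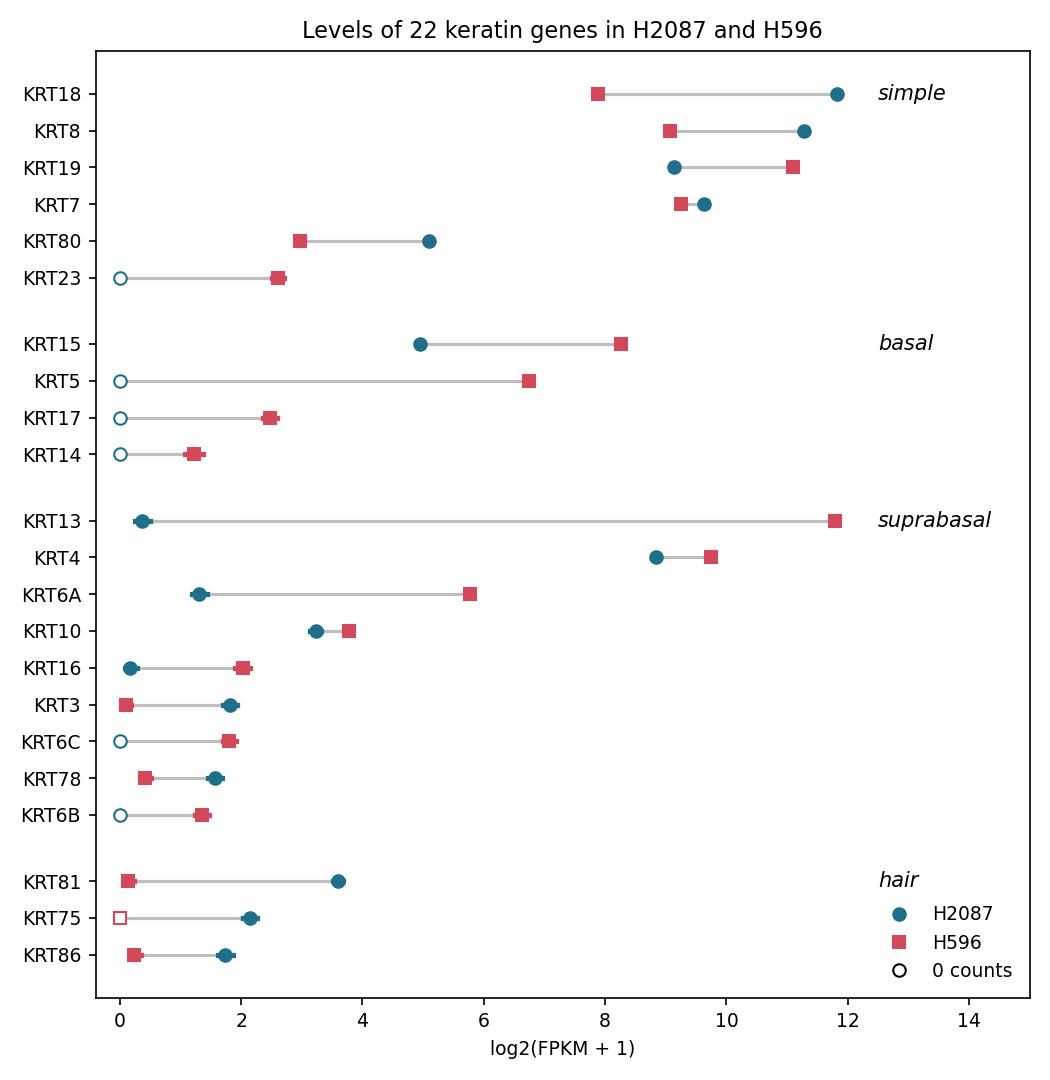
Levels of the 22 keratin genes that reached an FPKM of 1 in either line, as log2(FPKM + 1) on the x axis, by group from top to bottom. Circles are H2087 and squares H596, 1 library each, horizontal bars are 95% counting intervals (often narrower than the symbol), and open symbols are 0 counts. KRT18 and KRT8 lie further to the right in H2087 than in H596, whereas KRT13, KRT19, KRT15, KRT5 and KRT6A lie further to the right in H596 than in H2087.

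A gene was counted as different where log2(FPKM + 1), H596 minus H2087, was at least 1 in size and its mean FPKM at least 1, a rule that compares 2 libraries and has no replicate check. Of all 13048 genes with such a mean, 18.2% were higher in H596 and 14.2% higher in H2087. Of the 55 keratin genes, 20 had such a mean, 9 of these were higher in H596, 8 were higher in H2087, and KRT7, KRT4 and KRT10 were neither. The other 35 were not compared by this rule. For 11 of the 20 the FPKM was below 1 in a line, so that they could enter mainly through the line in which they were high, and their number supports no statement on the family. Among the 9 keratins with an FPKM of at least 1 in both lines, KRT15, KRT19 and KRT6A were higher in H596 and KRT80, KRT8 and KRT18 higher in H2087. Over all genes with that level in both lines, 14.8% were higher in H596 and 10.4% higher in H2087. The median difference of these 9 was 0.54, against 0.11 for all genes with that level in both lines.

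The simple keratins, those of 1-layered epithelia, made up 93.5% of the summed keratin FPKM in H2087 and 42.1% in H596, and their summed FPKM was 2.09-fold lower in H596 (3573 against 7485). KRT18, the type I chain of the primary pair (Gene ID 3875), had an FPKM of 3607 (3593 to 3621) from 253298 counts in H2087 and of 234 (231 to 237) from 19466 counts in H596. Its level was thus 15.4-fold (15.2 to 15.6) lower in H596, a difference of -3.94 on the log2(FPKM + 1) scale. KRT8, its type II partner (Gene ID 3856), had an FPKM of 2493 (2483 to 2504) in H2087 and 536 (531 to 540) in H596, 4.65-fold (4.61 to 4.70) lower, and its rank among all genes was 13 and 88. KRT18 was therefore lower in H596 by more than KRT8 was. By FPKM, KRT18 stood below KRT8 in H596 and above it in H2087. Together the pair made up 76.2% of the keratin FPKM of H2087 and 9.07% of that of H596.

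KRT19, the smallest type I keratin and a keratin of ducts and airways (Gene ID 3880), went the other way from KRT18. Its FPKM was 561 (555 to 566) in H2087 and 2183 (2173 to 2193) in H596, 3.89-fold (3.85 to 3.94) higher, and it was the 7th highest of all genes in H596. KRT7, a type II keratin of glandular and airway epithelium (Gene ID 3855), had an FPKM of 791 (785 to 797) in H2087 and 608 (603 to 613) in H596, so that the difference of -0.38 on the log2(FPKM + 1) scale was beyond counting error and below the 2-fold rule. KRT80, a type II keratin found in many epithelia, was lower in H596, with an FPKM of 33.3 (32.5 to 34.2) in H2087 and 6.86 (6.52 to 7.21) in H596, 4.86-fold (4.60 to 5.15). KRT23, a type I keratin, had 0 counts in H2087 and an FPKM of 5.09 (4.71 to 5.50) in H596, at least 181-fold higher if 3 counts are taken as the limit that a count of 0 allows. KRT20, a keratin of the gut and urothelium, had 14 counts in H2087 (an FPKM of 0.156) and 0 in H596. Of the 5 simple keratins with an FPKM of at least 1 in both lines, KRT19 was therefore higher in H596, KRT18, KRT8 and KRT80 were higher in H2087, and KRT7 was neither.

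All 4 basal keratins had a higher FPKM in H596, and 3 of them had 0 counts in H2087. Only KRT15 reached an FPKM of 1 in both lines, a level at which 14.8% of all genes were higher in H596. KRT5, KRT17 and KRT14 reached it in H596 alone, so the number of basal keratins higher there supports no statement on the group. Their summed FPKM was 29.8 in H2087, all of it KRT15, and 418 in H596, which was 0.372% and 4.93% of the keratin FPKM. KRT5, the type II chain of the basal layer (Gene ID 3852), had 0 counts in H2087 and an FPKM of 106 (104 to 108) from 13859 counts in H596, at least 3917-fold higher. KRT15, a type I keratin of basal cells and of the hair bulge (Gene ID 3866), had an FPKM of 29.8 (28.6 to 30.9) in H2087 and 306 (303 to 309) in H596, 10.3-fold (9.88 to 10.7) higher. H2087 thus had KRT15 with no count of KRT5. KRT17, made by basal-like and wounded epithelium, had 0 counts in H2087 and an FPKM of 4.57 (4.14 to 5.03) in H596, at least 115-fold higher. KRT14, the usual type I partner of KRT5, was low in H596, with an FPKM of 1.33 (1.12 to 1.59) from 124 counts against 0 in H2087, and its mean of below 1 kept it out of the comparison. Of the 50-base windows of the KRT14 transcript, 11.3% occur in KRT16, so its value also depends on how shared reads were divided.

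The suprabasal keratins made up 5.87% of the keratin FPKM in H2087 and 53.0% in H596. KRT13 accounted for most of that share: without it, an alternative chosen after the data were seen, the suprabasal share of H596 was 19.0% and the simple share 72.5%. KRT13, the type I keratin of the upper layers of mucosa such as that of the oesophagus (Gene ID 3860), had 24 counts in H2087, an FPKM of 0.281 (0.189 to 0.418), and 346211 counts in H596, an FPKM of 3558 (3546 to 3570). The ratio was 12671 (8516 to 19776), and the difference of 11.44 on the log2(FPKM + 1) scale was the largest of any keratin. KRT4, its type II partner in mucosa (Gene ID 3851), was abundant in both lines, with an FPKM of 455 (451 to 459) in H2087 and 860.4 (855 to 866) in H596. The 1.89-fold (1.87 to 1.91) difference of KRT4 stayed just under the 2-fold rule, at 0.92 on the log2 scale, and passed it, at 1.10, only where FPKM was rescaled to the same total in both lines (TPM).

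KRT6A, a type II chain of activated and wounded epithelium (Gene ID 3853), had an FPKM of 1.48 (1.27 to 1.72) in H2087 and 53.7 (52.5 to 54.9) in H596, 36.3-fold (31.3 to 42.5) higher. Its close copies KRT6B and KRT6C had 0 counts in H2087 and FPKM values of 1.55 (1.35 to 1.78) and 2.49 (2.23 to 2.78) in H596, at least 56.8-fold and 91.6-fold higher, though the mean of KRT6B was below 1 and kept it out of the comparison. These 3 genes share sequence, 35.2% of the 50-base windows of the KRT6A transcript being found in KRT6C and 28.6% in KRT6B, and since it is not stated how shared reads were divided, their single values are uncertain. KRT16, the type I partner of KRT6A, had 10 counts in H2087, an FPKM of 0.121 (0.0659 to 0.223), and 300 counts in H596, an FPKM of 3.07 (2.74 to 3.44), 25.3-fold (13.6 to 53.3) higher. Its pseudogenes KRT16P1, KRT16P2 and KRT16P3 held 8148 counts in H2087 and 56 in H596. Of the 50-base windows of KRT16, 11.8% occur in KRT16P3. The value of KRT16 and the direction of its difference thus depend on how shared reads were divided, beyond the counting interval.

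The remaining suprabasal keratins went in both directions. KRT3, a type II keratin known from the cornea, had an FPKM of 2.51 (2.24 to 2.83) in H2087 and 0.0759 (0.0412 to 0.140) in H596, 33.1-fold (17.7 to 69.8) lower. KRT78, a type II keratin of stratified epithelia, was 5.97-fold (4.45 to 8.12) lower, with an FPKM of 1.96 (1.74 to 2.20) in H2087 and 0.328 (0.252 to 0.427) in H596. Both KRT3 and KRT78 were below an FPKM of 1 in H596, so that they entered the comparison through H2087. KRT10, the type I keratin of differentiating epidermis, had FPKM values of 8.37 (7.83 to 8.95) and 12.7 (12.04 to 13.3), 1.51-fold (1.39 to 1.65) higher in H596. KRT10 was thus present in both lines, whereas its partner KRT1 had 0 counts in H2087 and 4 in H596. KRT24 had 0 counts in H2087 and 95 in H596 (an FPKM of 0.882), KRT9 of palms and soles had 0 and 8, and KRT79 had 16 and 0. Of the 3 suprabasal keratins with an FPKM of at least 1 in both lines, KRT6A was higher in H596 and KRT4 and KRT10 were neither.

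The hair keratins were low in both lines. An FPKM of 1 was reached by 3 of the 26, in H2087 only, so that their common direction follows from how they were picked out. Their group held 0.213% of the keratin FPKM in H2087 and 0.0101% in H596. KRT81, a type II keratin of the hair cortex (Gene ID 3887), had an FPKM of 11.1 (10.4 to 11.8) from 1017 counts in H2087 and 0.0922 (0.0501 to 0.170) from 10 counts in H596, 120-fold (65.2 to 252) lower. KRT86, a similar hair keratin, had an FPKM of 2.34 (2.07 to 2.65) in H2087 and 0.180 (0.120 to 0.270) in H596, 13.0-fold (8.49 to 20.9) lower. The values of KRT81 and KRT86 are not independent, since 38.4% of the 50-base windows of KRT81 occur in KRT86 and the KRT86 locus (chr12:52668429-52702947 of hg19, plus strand) covers KRT81 (chr12:52679697-52685299, minus strand); the library kit keeps strand, but whether the counting used it is not stated. KRT75, of the companion layer of the hair follicle, had an FPKM of 3.42 (3.08 to 3.80) from 349 counts in H2087 and 0 counts in H596, at least 137-fold lower. In H596, KRT74, KRT33B, KRT33A and KRT40 had 18, 16, 14 and 11 counts against 0 in H2087, and KRT83 had 13 counts in H2087 against 0 in H596.

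**Figure D2:**
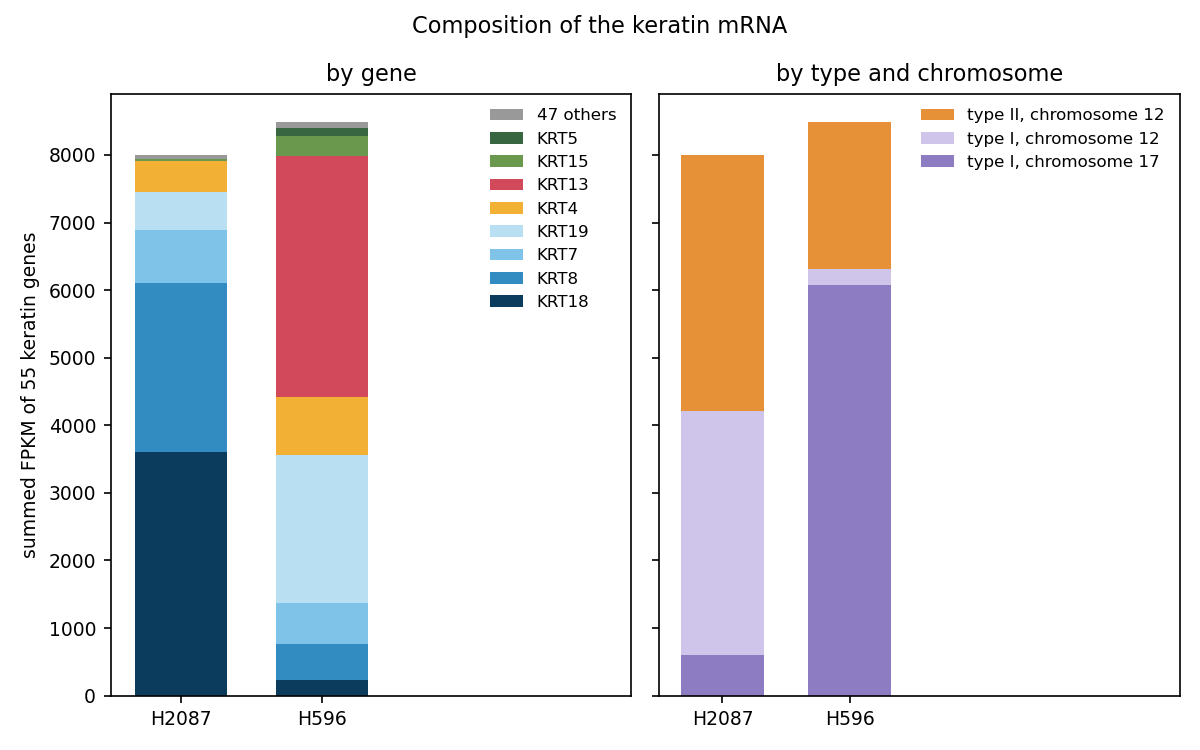
Summed FPKM of the 55 keratin genes in H2087 and H596 (y axis), stacked by gene on the left and by type and chromosome on the right, 1 library per bar and no error bars. The bars are nearly equal in height, at 8002 and 8485, but KRT18 and KRT8 fill most of H2087, whereas KRT13 and KRT19 fill most of H596.

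The order of the levels differed accordingly. In H2087 the FPKM values descended from KRT18 through KRT8, KRT7, KRT19, KRT4, KRT80, KRT15, KRT81, KRT10 and KRT75, and the counting intervals of neighbours in this order did not overlap. Below KRT75, the intervals of KRT3 and KRT86 overlapped, as did those of KRT86 and KRT78. In H596 the order was KRT13, KRT19, KRT4, KRT7, KRT8, KRT15, KRT18, KRT5, KRT6A, KRT10 and KRT80, again without overlap, while KRT23 and KRT17 overlapped below it. An FPKM of 100 was reached by 5 keratins in H2087 and by 8 in H596.

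Type I chains exceeded type II chains in both lines by FPKM, by more in H596. The ratio of summed type I to summed type II FPKM was 1.11 in H2087 and 2.90 in H596, which came with a 1.50-fold higher type I sum (6310 against 4207) and a 1.74-fold lower type II sum (2176 against 3795). Type II genes held 47.4% of the keratin FPKM in H2087 and 25.6% in H596. By counts, which are not corrected for length, the type II share of H2087 was 53.1%, so that which type prevailed in H2087 depended on the scale, and without KRT13 the type II share of H596 was 44.2%. Of genes that reached an FPKM of 1 in both lines, for which the shares over all genes were 14.8% and 10.4%, 2 of 4 type I keratins were higher in H596 and 1 in H2087, and 1 of 5 type II keratins was higher in H596 and 2 in H2087.

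The 8 partner pairs were compared within each line. KRT18 over KRT8 was 1.45 (1.44 to 1.46) in H2087 and 0.437 (0.430 to 0.444) in H596. KRT19 over KRT7 was 0.709 (0.701 to 0.718) in H2087 and 3.59 (3.56 to 3.62) in H596, so both simple pairs changed sides, in opposite directions. KRT13 over KRT4 was 0.000617 (0.000395 to 0.000918) in H2087 and 4.14 (4.11 to 4.16) in H596. In H596, KRT5 exceeded KRT14 by 79.7-fold (66.8 to 95.9), whereas KRT15 exceeded KRT5 by 2.89-fold (2.83 to 2.94), so KRT15 and not KRT14 was the more abundant basal type I chain. KRT6A exceeded KRT16 in both lines, by 12.2-fold (6.47 to 25.9) in H2087 and 17.5-fold (15.6 to 19.7) in H596. KRT14 shares sequence with KRT16, and KRT16 with its pseudogenes. How such reads were divided is not stated, so the ratios with KRT14 and KRT16 are less certain than their intervals. KRT17 exceeded KRT6B in H596 by 2.95-fold (2.48 to 3.51), and neither had a count in H2087.

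**Figure D3:**
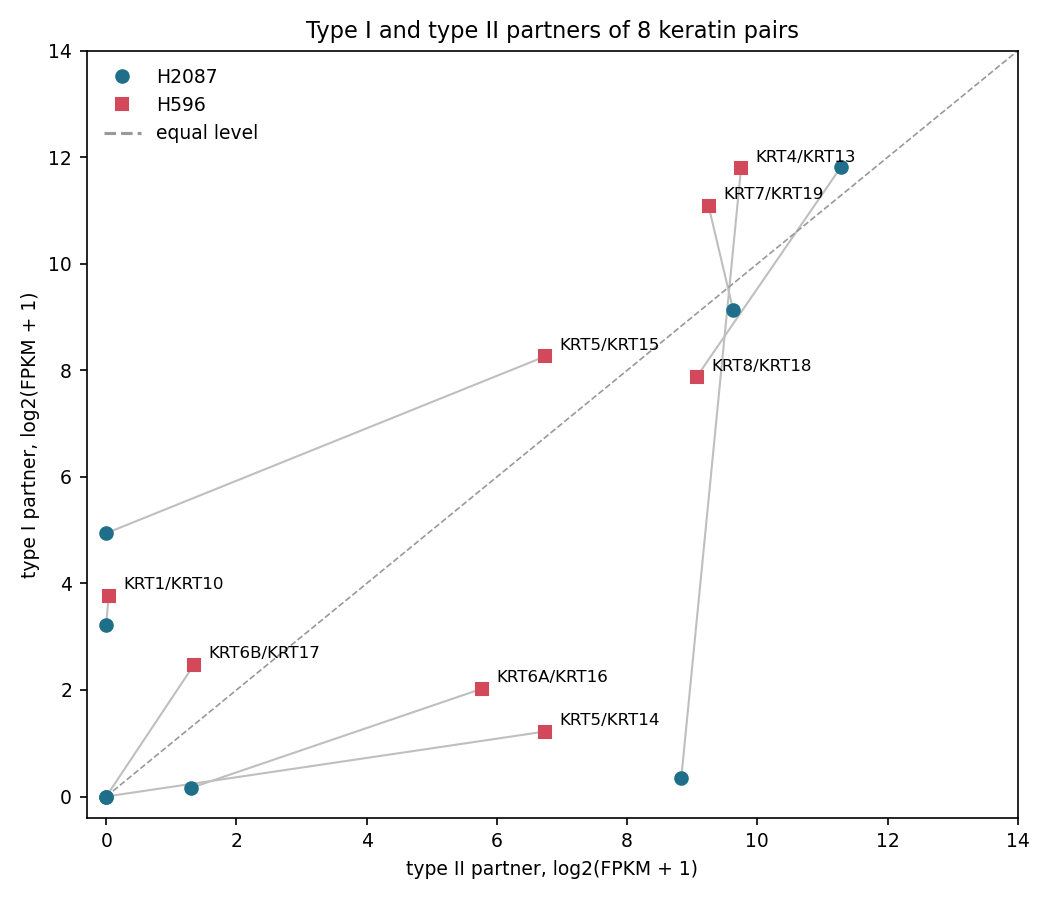
Type I partner against type II partner of 8 keratin pairs, both as log2(FPKM + 1), with H2087 as circles and H596 as squares joined for each pair, 1 library per cell line and no error bars. Points above the dashed line have more of the type I partner; KRT8/KRT18 crosses it downwards and KRT7/KRT19 and KRT4/KRT13 cross it upwards from H2087 to H596.

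All 8 keratins of chromosome 17 with an FPKM of at least 1 in either line had the higher value in H596, although KRT23, KRT13, KRT14, KRT16 and KRT17 reached that level in H596 alone. Of the other keratins there, KRT20 had its 14 counts in H2087, and 14 of the 28 had 0 counts in both lines. Of genes that reached an FPKM of 1 in both lines, chromosome 17 held 3 keratins, of which KRT15 and KRT19 were higher in H596 and KRT10 was neither, against 14.5% higher in H596 and 6.84% higher in H2087 over all 702 such genes of the chromosome (median 0.18). Chromosome 12 held 6, of which KRT6A was higher in H596, KRT80, KRT8 and KRT18 were higher in H2087, and KRT7 and KRT4 were neither. Other genes of chromosome 12 also leaned to H2087: of all 581 such genes, 4.99% were higher in H596 and 26.5% higher in H2087 (median -0.45). The summed keratin FPKM of chromosome 12 was 7402 in H2087 and 2410 in H596 and that of chromosome 17 599.5 and 6076.

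Within the chromosome 12 cluster, the direction changed between neighbours. From KRT80 to KRT75, 9 genes in map order, none was higher and 4 were lower in H596 by the 2-fold rule, of which KRT86, KRT81 and KRT75 were below an FPKM of 1 in H596. Over all 676 genes of chromosome 12 compared by this rule, 7.99% were higher in H596 and 30.3% higher in H2087. The next 4 genes, KRT6B, KRT6C, KRT6A and KRT5 (chr12:52840435-52845910 to chr12:52908359-52914243 of hg19, minus strand), all had the higher value in H596, and their summed FPKM was 1.48 in H2087 and 164 in H596, 111-fold higher. Of these 4, KRT6B, KRT6C and KRT5 had 0 counts in H2087, so that their direction follows from the line in which they were detected. At the other end, KRT3, KRT78, KRT8 and KRT18 were lower in H596, KRT3 and KRT78 being below an FPKM of 1 there. KRT4, which lies next to KRT3, had the higher value in H596. On chromosome 17, KRT13, KRT15 and KRT19 are neighbours, and together they held 7.38% of the keratin FPKM in H2087 and 71.3% in H596. The next genes with an FPKM of at least 1, KRT14, KRT16 and KRT17, also had their higher values in H596, at a summed FPKM of 0.121 against 8.97.

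**Figure D4:**
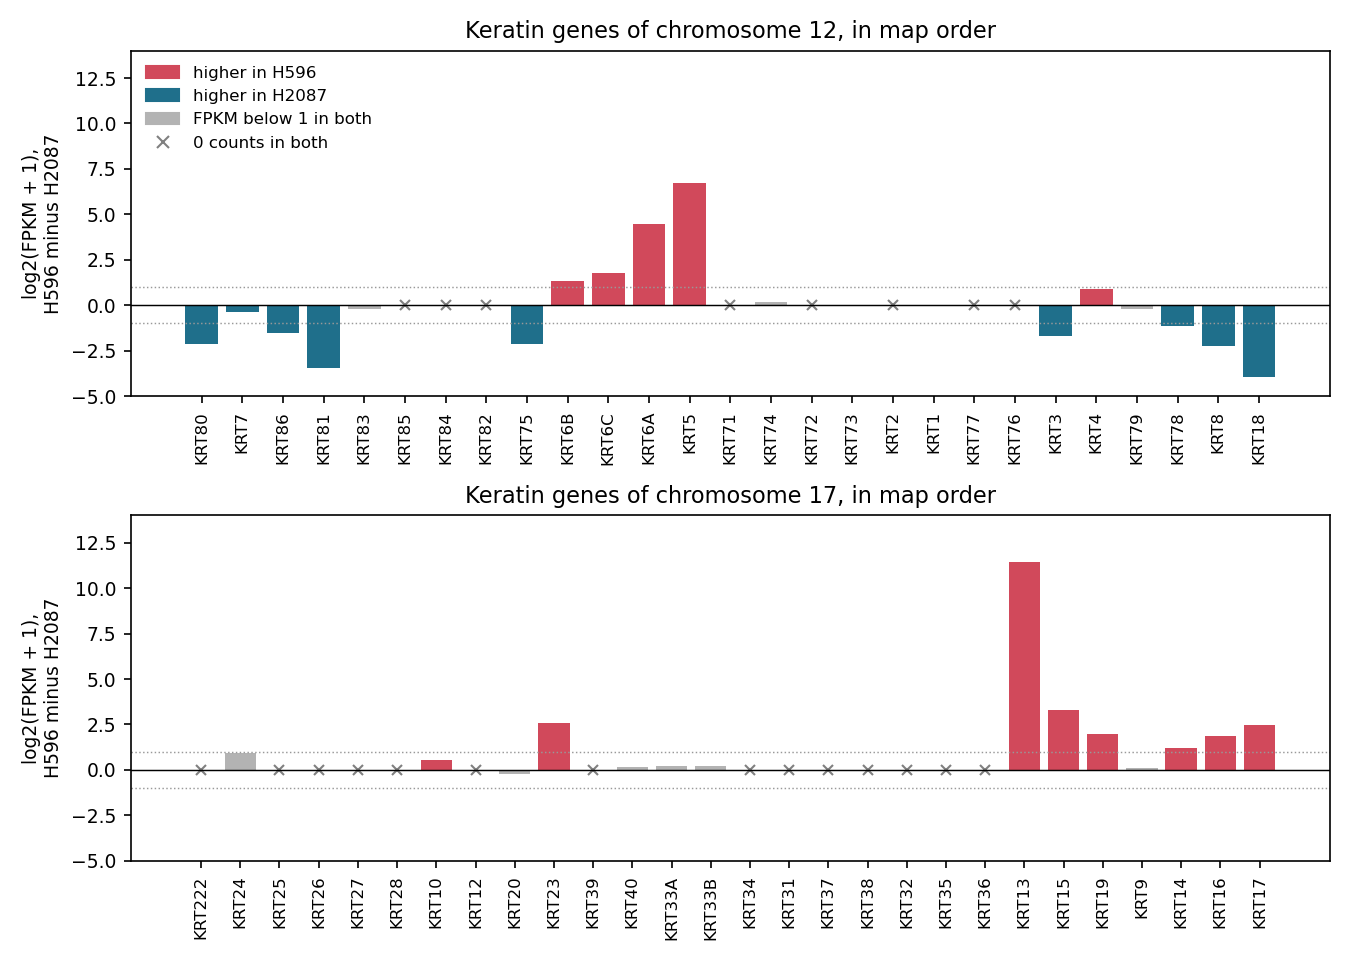
Difference of log2(FPKM + 1), H596 minus H2087, for the 27 keratin genes of chromosome 12 (top) and the 28 of chromosome 17 (bottom) in map order, evenly spaced. Bars above 0 are higher in H596, grey bars are genes with an FPKM below 1 in both lines, crosses are genes with 0 counts in both, and dotted lines mark the 2-fold rule; KRT6B to KRT5 stand up from a cluster that is otherwise mostly at or below 0.

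Promoters of genes whose values went in opposite directions are shown to set their sequences side by side. They are those of KRT75 and KRT5, which border the KRT6 genes on either side, and of the neighbours KRT3 and KRT4. KRT75 had 0 counts in H596 and KRT5 0 in H2087, so their directions follow from the line in which they were detected. KRT4 stayed under the 2-fold rule. Each promoter is the 250 bases before the start of the gene in RefSeq (GRCh38.p14, chromosome 12, minus strand, printed 5′ to 3′ on the gene's strand), whereas the deposited tables use hg19. Capitals mark ATAAA, searched on the gene's strand from 45 to 15 bases before the start, the place of a TATA box.
KRT5, chr12:52520395-52520644: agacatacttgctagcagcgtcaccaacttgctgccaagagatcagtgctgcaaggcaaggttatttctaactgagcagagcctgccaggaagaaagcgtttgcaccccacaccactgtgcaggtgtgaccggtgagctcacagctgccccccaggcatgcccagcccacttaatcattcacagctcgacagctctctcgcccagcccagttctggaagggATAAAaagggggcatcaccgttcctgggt
KRT75, chr12:52434372-52434621: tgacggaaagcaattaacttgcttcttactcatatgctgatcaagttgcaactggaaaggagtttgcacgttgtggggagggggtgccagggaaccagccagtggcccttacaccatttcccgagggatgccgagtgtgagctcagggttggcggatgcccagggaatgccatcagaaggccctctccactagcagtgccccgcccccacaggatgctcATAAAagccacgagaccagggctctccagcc
KRT3, chr12:52796118-52796367: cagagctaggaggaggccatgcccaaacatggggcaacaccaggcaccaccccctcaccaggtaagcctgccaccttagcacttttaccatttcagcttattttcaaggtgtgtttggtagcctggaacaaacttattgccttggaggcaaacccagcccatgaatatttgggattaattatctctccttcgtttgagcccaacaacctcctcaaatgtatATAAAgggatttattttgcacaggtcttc
KRT4, chr12:52814117-52814366: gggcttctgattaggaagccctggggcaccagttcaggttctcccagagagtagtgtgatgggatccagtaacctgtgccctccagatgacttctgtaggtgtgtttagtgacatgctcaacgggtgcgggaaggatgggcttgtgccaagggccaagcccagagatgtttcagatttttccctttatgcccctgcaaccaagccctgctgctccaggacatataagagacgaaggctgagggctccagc

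KRT5 and KRT75, which differed in opposite directions between the lines, both held ATAAA in that place, as did KRT3, and KRT4 did not. The KRT4 promoter holds the letters tataag in the same place, which a search for ATAAA misses. A promoter without ATAAA there may therefore still hold a similar TATA sequence. Promoters of 34 keratin genes were listed. Of these 24 (70.6%) held ATAAA there, against 5.33% of the promoters of all 27305 genes with the full 250 bases. Of the 22 keratins with an FPKM of at least 1 in a line, only 6 were among the 34. The shares therefore describe mostly keratins below that level in both lines. ATAAA was found in 4 of these 6 and in 20 of the 28 others. The letters GGGCGG, the core of a GC box (both strands), were in 4 of the 34 (11.8%), KRT75 among them, against 42.3% of all, and TGANTCA, the AP-1 motif with any base in the middle (both strands), was in 0 of the 34 against 6.60% of all. These are matches of letters in this window and not binding sites.

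Most keratins had a single listed transcript, so that the gene value was that of 1 mRNA. Of the 22 genes with an FPKM of at least 1, 16 had 1 transcript and 6 had several. For KRT8, NM_002273 held 96.3% of the gene's FPKM in H2087 and 94.8% in H596, and for KRT18, NM_000224 held 95.8% and 96.1%. For KRT13, NM_153490 held 98.7% in H596 and NM_002274 the other 1.26%, an FPKM of 44.9, whereas in H2087 the 24 counts all belonged to NM_153490. KRT80 was divided more evenly, with NM_182507 at 54.8% in H2087 and 55.8% in H596. The main transcript was therefore the same in both lines for these 4 genes, while the gene levels differed 4.65-fold or more. Of the KRT8 transcripts, NM_001256293 and NR_045962 extend into the KRT18 locus on the other strand and held 2.05% and 0.723% in H2087 and 2.53% and 1.73% in H596.

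Keratin filaments are tied to desmosomes and hemidesmosomes by plakin linkers. All 7 plakins were compared, of which 4 were higher in H596 and none higher in H2087, with a median difference of 1.31; over all genes compared 18.2% were higher in H596, 14.2% higher in H2087, and the median was 0.12. DSP, desmoplakin, which anchors keratins at desmosomes, had an FPKM of 5.44 (5.23 to 5.66) in H2087 and 117 (116 to 118) in H596, 21.6-fold (20.7 to 22.5) higher. PPL, periplakin of the cornified envelope, had FPKM values of 15.5 and 44.8 (2.89-fold), PLEC, plectin, 25.7 and 71.4 (2.78-fold), and DST, dystonin, 12.8 and 33.2 (2.60-fold). EVPL (0.94), EPPK1 (0.30) and MACF1 (-0.83) stayed under the 2-fold rule on the log2(FPKM + 1) scale. FAM83H, a regulator of keratin filaments, had FPKM values of 25.3 and 54.3, a difference of 1.07, and TCHP, trichoplein, differed by -0.64.

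Of the 16 other intermediate filament genes, 6 were compared, of which none was higher in H596 and 2 were higher in H2087 (14.2% over all genes), and 10 had a mean FPKM below 1. VIM, vimentin of mesenchymal cells and of many cultured lines, had an FPKM of 51.8 (50.4 to 53.2) from 5306 counts in H2087 and 0 counts in H596, at least 2086-fold lower. In the same library LMNA, another filament gene, had 33797 counts. LMNB1, a lamin of the nuclear envelope, had FPKM values of 89.8 and 33.1 (2.71-fold lower in H596), while LMNA, lamin A/C, had 209 and 222, a difference of 0.09. NES, nestin, with a mean below 1, had FPKM values of 1.61 and 0.0376. H2087 therefore held keratin together with vimentin, and H596 keratin with no vimentin count.

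**Figure D5:**
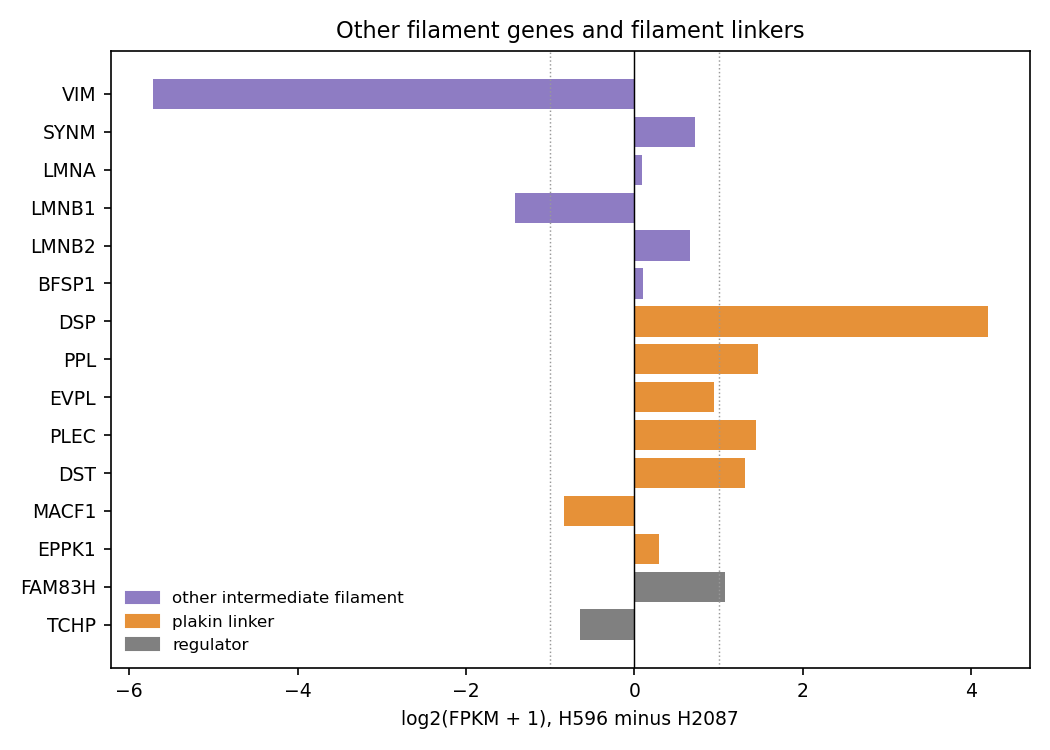
Difference of log2(FPKM + 1), H596 minus H2087, for the 15 other filament genes, plakin linkers and regulators with a mean FPKM of at least 1, with bars coloured by class, dotted lines at the 2-fold rule, 1 library per line and no error bars. DSP stands out to the right at 4.20 and VIM to the left at -5.72.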

How the data were processed

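Total RNA of 1 untreated culture of each cell line was sequenced on an Illumina HiSeq4000 from stranded mRNA libraries. The authors aligned reads to hg19 with HISAT2 2.0.5 after Trimmomatic and deposited estimated counts (whole numbers, derivation not stated) and FPKM values from StringTie 1.3.3b for RefSeq transcripts and genes. The keratin genes, groups, pairs, partner and marker lists came from textbook knowledge and were chosen with earlier results of these data known. All keratins with an FPKM of at least 1 in a line were named, the others by range or where they had more than 3 counts, and partners by a difference of at least 1, with VIM, LMNA, PLEC and DSP.

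From the deposited values, log2(FPKM + 1) was compared over all genes whose mean FPKM was 1 or more. Total counts of 46961500 and 55387847 set the counting intervals (95%, scipy 1.17.1), and 3 counts stood for a count of 0. If both mates of a fragment were counted, intervals would be up to 1.48-fold wider. No test was possible with 1 library per line. Exact 50-base windows were taken from GENCODE release 44 transcripts on GRCh37, where strands also come from, and promoters from RefSeq. Alternatives were other thresholds and pseudocounts, TPM, counts, TMM scaling (edgeR 4.0.16), centring, highest transcripts and added pseudogenes. The code of the intervals and of the 2-fold rule was run on simulated counts with counting error only. These held no spread between replicates and no reads shared between genes, so they say nothing on either. Python 3.11.15, pandas 2.3.3 and numpy 2.4.6 were used.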

Additional observations from a re-analysis of the deposited data

Results flagged for a closer look

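Outside the 55 keratin genes, 11 pseudogenes, 2 antisense genes and 93 KRTAP genes were listed. Of these related genes, 7 had an FPKM of at least 1, all of them in H2087. Over all 27685 genes, 12534 reached that level in H2087, 12608 in H596 and 11349 in both. The number of related genes in H2087 therefore supports no statement on them as a group. The largest of the 7 were the 3 pseudogenes of KRT16 on chromosome 17: KRT16P2 had an FPKM of 71.45 in H2087, KRT16P1 of 19.25 and KRT16P3 of 11.51. Together they held 8148 counts in H2087 (an FPKM of 102) and 56 in H596 (0.599), whereas KRT16 itself had 10 counts in H2087 and 300 in H596, so the copies and the coding gene differed in opposite directions. Of the 50-base windows of the KRT16 transcript, 5.90% occur in KRT16P1, 6.84% in KRT16P2 and 11.8% in KRT16P3, and 46.4% of those of KRT16P1 occur in KRT16P2, so the division among the copies is uncertain. The part of reads that match several copies was not tested. The other 4 were the pseudogene KRT87P with an FPKM of 1.16, the antisense gene KRT7-AS with 1.161, which lies within the KRT7 locus on the other strand, and the keratin associated protein genes KRTAP4-1 with 2.423 and KRTAP2-3 with 1.17. Of these, KRT87P, KRT7-AS and KRTAP4-1 had 0 counts in H596 and KRTAP2-3 had 2. Of the 93 KRTAP genes listed, 76 had 0 counts in both lines.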

How the results depend on the processing

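Of the 32 keratins with more than 3 counts in a line, KRT4, KRT6B, KRT14 and KRT24 came to pass the 2-fold rule with TPM (1.10, 2.25, 2.08 and 1.65), and no other call changed under the pseudocount, TMM scaling, centring, TPM or highest transcripts. After centring, the differences of KRT1 (-0.07884) and KRT9 (-0.03083), both from under 10 counts, changed sign, and no other did. The median difference of all genes compared was 0.12 as deposited, 0.29 with TPM, -0.0028 with TMM scaling and 0 after centring. Of 64 values under alternatives for the counts and shares, 37 stayed close and 27 moved. Counts of genes were judged by a fold range, but shares by the narrow width of a counting interval. A change from 9 to 13 keratins higher in H596 with TPM was thus called close. A change of the simple share of H2087 from 93.54% to 93.33% was called moved. The tally therefore does not measure how stable the results were. At an FPKM of at least 5, 9 keratins were detected in H2087. With a mean FPKM of at least 10, 5 keratins were higher in H596 and 3 in H2087, and with an FPKM of at least 1 in both lines, 3 and 3; both rules compare fewer genes. By counts, the shares in H2087 were 91.65% simple, 0.4157% basal, 7.676% suprabasal, 0.2585% hair and 53.06% type II, and in H596 38.48% simple, 5.619% basal, 55.89% suprabasal and 29.32% type II. By the highest transcript of each gene, they were 93.33% simple, 6.069% suprabasal and 47.64% type II in H2087 and 4.977% basal and 25.53% type II in H596. With pseudogenes added, H2087 had 92.36% simple, 7.06% suprabasal and 46.83% type II. Without KRT13, a choice made after the data were seen, H596 had 72.52% simple, 8.485% basal, 18.98% suprabasal, 0.01735% hair and 44.16% type II. The simple share stayed higher in H2087 and the suprabasal share higher in H596 under each of these. No paired analysis was possible because H2087 and H596 were each sequenced as a single library, and likewise no library could be left out.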
